A study of Mus musculus with 18 samples.

Results

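The chemokine ligands are a family of small signalling proteins, and 37 of the 27179 genes listed for cultured mouse mesenchymal stem cells (MSCs) belonged to it by name. They were chosen as every gene whose symbol is Ccl with a number and at most 1 letter, Cxcl with a number, or Cx3cl1, with Cxcl12 left out. Of these 37 genes, 21 had a mean of at least 10 normalised read counts over the 18 libraries and were tested, 11 had a lower mean with at least 1 read, and 5 were at 0 in every library. A normalised read count is the number of reads on a gene divided by 1 size factor per library. Just inside the limit lay Ccl17, with a mean of 15.3, and just outside lay Cxcl2, with a mean of 7.03.

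RNA was sequenced from young, old and rejuvenated old MSCs, with 6 libraries per group. MSCs are adherent stromal cells from the bone marrow of male C57BL6 mice. Young donors were 6 weeks and old donors 18 to 24 months of age, and all cells were plated at 100000 per well and grown for 7 days. Rejuvenated old MSCs were old MSCs that shared a well with young MSCs behind a Transwell membrane with pores of 0.4 µm, which passes soluble factors and holds back cells. None of the libraries was of old MSCs grown beside further old MSCs. The presence of another cell layer and its donors' age therefore cannot be told apart. The labels call the libraries of a group biological replicates without saying whether each came from a separate animal, so p-values measure the spread between these libraries.

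Chemokines are secreted or membrane-bound proteins that bind receptors on white blood cells and draw them along a gradient. The position of the first cysteines names the classes. In CC chemokines they stand side by side, in CXC chemokines a single residue lies between them, and in CX3C, of which Cx3cl1 (fractalkine) is the only member, the gap is wider. CXC chemokines with the residues Glu-Leu-Arg before the cysteines act on CXCR2 and attract neutrophils, while Cxcl9, Cxcl10 and Cxcl11 bind CXCR3 on activated T cells and are induced by interferons. CC chemokines such as Ccl2 and Ccl7 bind CCR2 and draw monocytes, and Ccl3, Ccl5, Ccl6 and Ccl9 bind CCR1. Stromal cells of the marrow, macrophages and neutrophils are all known sources of chemokines.

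The class signature can be read in the coding sequence. The stretches shown here are those of the ligands on which the results turn, from the GENCODE M21 transcripts of GRCm38, 5′ to 3′, with the codons of the first cysteines in capitals.
Ccl12: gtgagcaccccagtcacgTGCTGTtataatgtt
Ccl8: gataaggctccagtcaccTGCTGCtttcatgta
Ccl6: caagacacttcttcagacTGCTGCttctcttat
Ccl5: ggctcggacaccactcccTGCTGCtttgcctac
Cxcl1: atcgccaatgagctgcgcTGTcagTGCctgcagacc
Cxcl5: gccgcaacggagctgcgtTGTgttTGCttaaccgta
Cxcl15: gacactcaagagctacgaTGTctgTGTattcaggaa
Cxcl9: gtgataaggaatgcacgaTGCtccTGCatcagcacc
Cxcl10: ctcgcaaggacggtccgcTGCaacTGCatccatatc
Cxcl14: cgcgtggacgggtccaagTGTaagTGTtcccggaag
Cx3cl1: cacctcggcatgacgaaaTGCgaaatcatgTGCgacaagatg
The cysteine codons are adjacent in Ccl12, Ccl8, Ccl6 and Ccl5 and separated by 1 codon in the Cxcl genes. Codons for Glu, Leu and Arg stand directly before them in Cxcl1, Cxcl5 and Cxcl15 and not in Cxcl9, Cxcl10 or Cxcl14.

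The libraries held 22936251 to 25648769 reads on genes in young, 24965971 to 29559194 in old and 26018046 to 29155223 in rejuvenated old MSCs. Libraries of a group were not duplicates, since the chi-square value per degree of freedom of every pair was 2.61 to 23.7, above sampling noise. Rejuvenated old replicate 1 stood apart in Thy1, a surface antigen of stromal and T cells, at 21.6 normalised counts against 0 to 0.951 in the rest of its group, 0 to 3.23 in old and 175 to 227 in young MSCs. It was picked out after these values were seen. The sum of 11 stromal markers, in which the collagen genes Col1a1 and Col1a2 weigh most, was 313212 to 339683 in young, 249664 to 266347 in old and 193709 to 226326 in rejuvenated old MSCs. Of these 11, 5 were higher and 6 lower in young than in old MSCs, where 41.6% and 44.1% of all genes were. Ly6a (the antigen Sca-1) ran from 19881 to 33910 in young against 5629 to 7488 in old MSCs, whereas Eng (endoglin) ran from 147 to 175 against 7008 to 7681.

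Macrophage markers differed between young MSCs and both groups of old cells. The sum of 16 such markers was 959 to 1076 in young, 16599.5 to 20637 in old and 16632 to 20218 in rejuvenated old MSCs. Lyz2 weighed most in old and rejuvenated old MSCs, with means of 10154 and 9769 against 173 in young MSCs. In young MSCs Cd68 weighed most, with a mean of 435. In young MSCs 8 of the 16 had at most 3 reads in every library, and Ptprc, the pan-leukocyte antigen CD45, and Adgre1, the macrophage antigen F4/80, were at 0. In old MSCs Ptprc ran from 162 to 207 and Adgre1 from 243 to 333. Of the 15 markers tested, 14 were lower and Aif1 higher in young than in old MSCs, where 44.1% and 41.6% of all genes were. In rejuvenated old against old MSCs 1 was higher and 1 lower, where 21.0% and 20.6% of all genes were. Sums of lymphocyte markers stayed at 0.962 to 9.85 in all libraries, and those of neutrophil markers ran from 32.4 to 54.4 in young, 214 to 249 in old and 119 to 169 in rejuvenated old MSCs. Camp, a peptide of neutrophil granules that other cells also make, made up most of the latter sum. The other 7 of the 8 neutrophil markers had means below 10 in every group, and Mpo was at 0 in every library. In such bulk RNA, fewer cells of a type and less RNA per cell cannot be told apart, and the part of macrophage RNA in the results that follow was not tested.

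Chemokine ligands took up a larger share of the reads in both groups of old cells than in young MSCs. Per 1000000 reads on genes, 161 ± 7.91 (SD, n = 6) fell on them in young MSCs. The share was 363 ± 14.4 (SD, n = 6) in old MSCs, and rejuvenated old MSCs reached 393 ± 13.2 (SD, n = 6). The old libraries ran from 344 to 384 and the rejuvenated old libraries from 376 to 405, so these 2 groups overlapped, whereas the young libraries, at 151 to 169.9, lay below both. The transcripts that led also differed. Per kilobase of transcript, Ccl2 stood first in young MSCs at 1039 normalised counts, followed by Ccl7 at 989, Ccl5 at 762 and Ccl8 at 368. In old MSCs the order was Ccl7 at 1701, Ccl2 at 1396, Cx3cl1 at 979, Cxcl1 at 764 and Ccl9 at 439. In rejuvenated old MSCs the same 5 led, with Ccl2 at 1769.9 ahead of Ccl7 at 1735. Neither Ccl5 nor Ccl8 was among the 10 highest ligands in old or rejuvenated old MSCs.

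**Figure D1:**
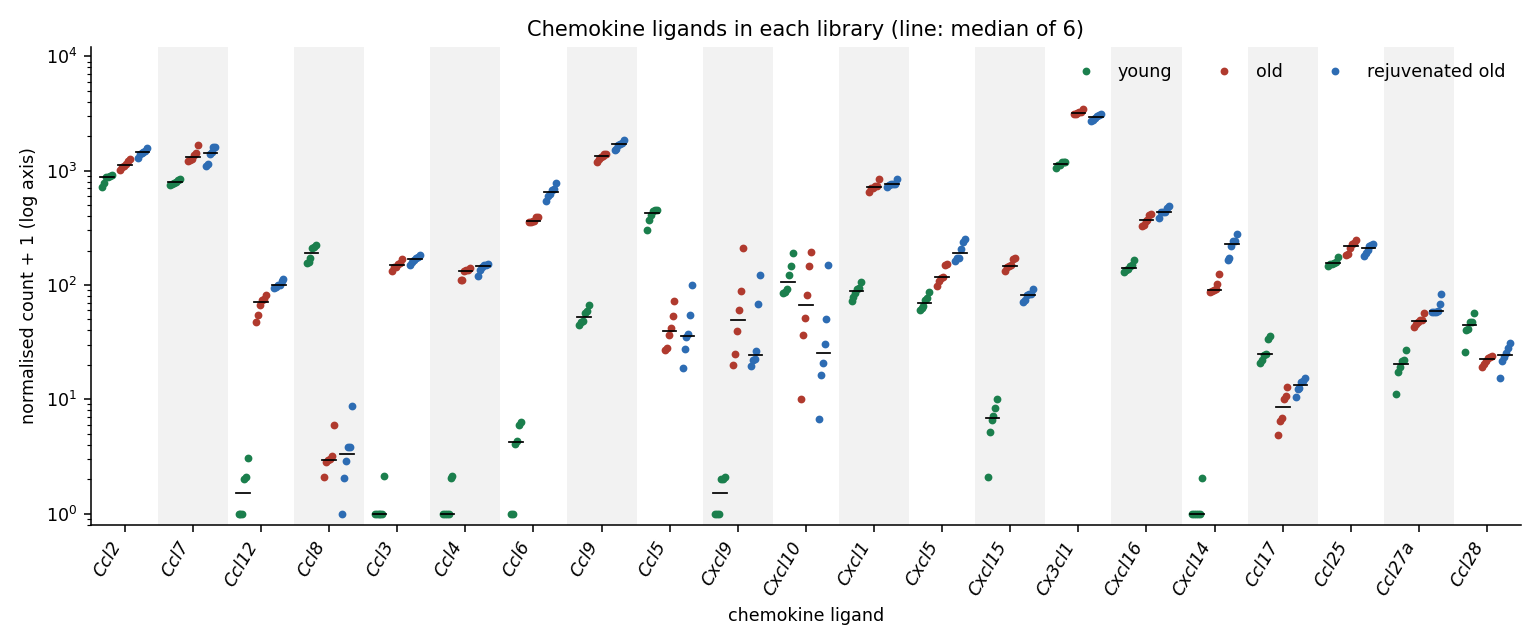
Normalised read counts plus 1 (log axis) of the 21 tested chemokine ligands in the 6 young (green), 6 old (red) and 6 rejuvenated old (blue) libraries, with points sorted by value within each group and a line at each median. Ccl12, Ccl3, Ccl4, Cxcl9 and Cxcl14 lie near 0 in young libraries, whereas Ccl8 and Ccl5 lie highest there, and Cxcl9 and Cxcl10 spread widely among the old and rejuvenated old libraries.

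Of the 21 tested ligands, 4 were significantly higher and 16 significantly lower in young than in old MSCs (adjusted p under 0.05, limma on log2 of the normalised count plus 1). Over all 14353 genes tested, 41.6% were higher and 44.1% lower. The sizes differed more than the counts did, since the median absolute log2 fold change was 3.06 among the ligands and 0.60 among all genes tested. The signed medians were -1.36 and -0.02. Between rejuvenated old and old MSCs, 7 ligands were significantly higher and 2 significantly lower, where 21.0% of all genes were higher and 20.6% lower. There the median absolute log2 fold change was 0.34 among the ligands and 0.15 among all genes, and the signed medians were 0.16 and 0.0081. Against rejuvenated old MSCs, 5 ligands were higher and 16 lower in young MSCs, where 41.5% and 44.1% of all genes were. These comparisons share their libraries and are not independent. Without rejuvenated old replicate 1, 6 ligands were higher and 3 lower in rejuvenated old MSCs than in old MSCs.

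**Figure D2:**
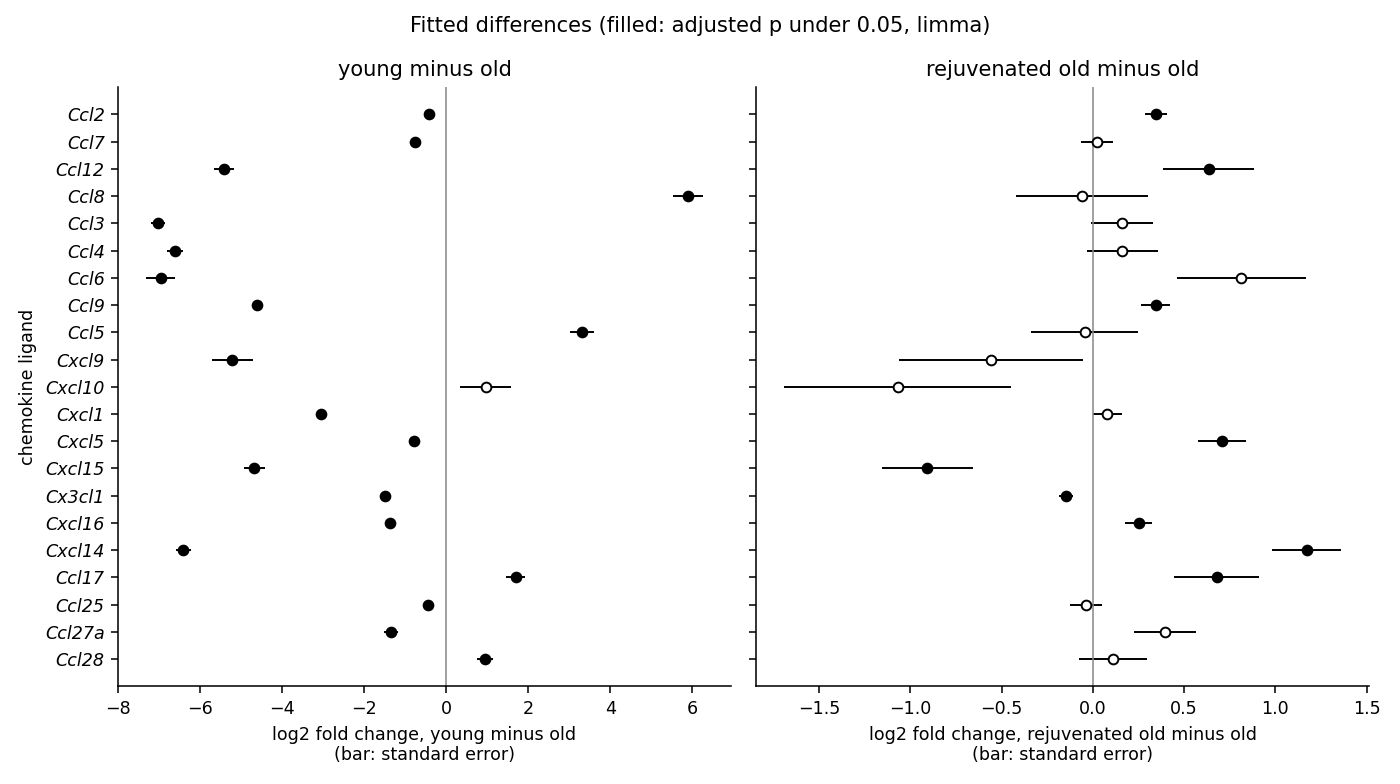
Log2 fold changes of the 21 tested ligands between young and old (left) and between rejuvenated old and old MSCs (right), with bars of 1 standard error and filled points where the adjusted p was under 0.05 (limma). The horizontal scales differ: values reach from -7.04 to 5.90 on the left and from -1.07 to 1.17 on the right.

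The CCR2 ligands Ccl2, Ccl7 and Ccl12, which attract monocytes, were lower in young than in old MSCs. Ccl8, which lies in the same gene cluster, was higher. Ccl2 (MCP-1), at chr11:82035577-82037452 in GRCm38, ran from 721 to 913 normalised counts in young (median 875), 1018 to 1270.2 in old (median 1116) and 1292 to 1583 in rejuvenated old MSCs (median 1444). The 3 groups did not overlap, with young lowest and rejuvenated old highest. Its log2 fold change was -0.43 (SE 0.06, adjusted p = 9.49e-07, limma) between young and old and 0.34 (SE 0.06, adjusted p = 9.98e-05) between rejuvenated old and old MSCs. Ccl7 (MCP-3), its neighbour on the chromosome, ran from 742 to 848 in young (median 792), 1209 to 1671 in old (median 1321) and 1108 to 1616 in rejuvenated old MSCs (median 1429.7). Young libraries lay below all others, with a log2 fold change of -0.77 (SE 0.09, adjusted p = 2.08e-08, limma), while old and rejuvenated old libraries overlapped over most of their range (0.02, SE 0.09, adjusted p = 0.864).

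Ccl12 (MCP-5) and Ccl8 (MCP-2) lie side by side on chromosome 11, at positions 82101845 to 82103399 and 82115185 to 82116799, and differed in opposite directions. Ccl12 drew 4 reads in all young libraries together, and its normalised counts ran from 0 to 2.06 in young (median 0.498), 46.2 to 80.3 in old (median 69.7) and 93.4 to 112 in rejuvenated old MSCs (median 99.0). The groups did not overlap in either comparison. By reads it was 93.9-fold higher in old than in young MSCs (95% exact interval 36.4 to 346, counting error only), and its fitted log2 fold change was -5.42 (SE 0.25, adjusted p = 1.68e-15, limma). Between rejuvenated old and old MSCs the fitted value was 0.63 (SE 0.25, adjusted p = 0.0445), a call that was lost in 15 of the other settings, with an adjusted p of 0.0603 without rejuvenated old replicate 1. Ccl8 was at the other end, with 153 to 222 in young (median 190.3), 1.08 to 4.92 in old (median 1.97) and 0 to 7.73 in rejuvenated old MSCs (median 2.35). Every young library lay above every other library, by 81.0-fold over old MSCs by reads (95% exact interval 48.1 to 149), with a fitted log2 fold change of 5.90 (SE 0.36, adjusted p = 4.46e-13). With 14 reads in the old and 17 in the rejuvenated old group, a difference between these was not detectable at this depth. Rejuvenated old replicate 1 held 1.03 of it.

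The promoters of these neighbours are shown because their transcripts differed in opposite directions. They are the 120 bases before the RefSeq start on GRCm38.p6, plus strand, with the letters TATAAA in capitals, at chr11:82101725-82101844 for Ccl12 and chr11:82115065-82115184 for Ccl8.
Ccl12: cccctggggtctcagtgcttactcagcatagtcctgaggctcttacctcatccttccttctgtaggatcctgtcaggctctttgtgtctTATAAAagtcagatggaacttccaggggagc
Ccl8: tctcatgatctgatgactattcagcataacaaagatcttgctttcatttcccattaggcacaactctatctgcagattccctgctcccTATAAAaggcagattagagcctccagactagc
TATAAA began 31 bases before the start in Ccl12 and 32 bases before it in Ccl8. Searched on both strands, it was found in 13.6% of the 32851 windows of 250 bases before to 50 after each RefSeq start. Among the ligands it was found in 10 of 31 windows, from 10 of the 25 ligands with a window.

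Of the 5 inflammatory CC ligands Ccl3, Ccl4, Ccl5, Ccl6 and Ccl9, 4 were lower and Ccl5 was higher in young than in old MSCs. Over all genes tested, 44.1% were lower and 41.6% higher. The median absolute log2 fold change was 6.63 in this class and 0.60 among all genes tested. Ccl3, Ccl4 and Ccl6 were near 0 in young MSCs and passed the limit for testing through the other groups, which builds in a large difference. The summed macrophage markers were lower in young than in old MSCs, at 959 to 1076 against 16599.5 to 20637. Their part in the ligand values was not tested. Ccl3 (MIP-1α) drew a single read in the 6 young libraries, and ran from 0 to 1.12 in young, 132 to 169 in old (median 147) and 149 to 182 in rejuvenated old MSCs (median 168). By reads it was 854-fold higher in old than in young MSCs, with a wide interval of 153 to 33765, and the fitted log2 fold change was -7.04 (SE 0.17, adjusted p = 8.25e-21, limma). Ccl4 (MIP-1β) drew 2 reads in young MSCs and ran from 0 to 1.12 in young, 109 to 138 in old (median 132) and 119 to 152 in rejuvenated old MSCs (median 145). Its fitted log2 fold change was -6.63 (SE 0.20, adjusted p = 4.20e-19). Both were thus nearly absent from young libraries and overlapped between old and rejuvenated old MSCs, where the fitted values were 0.16 (SE 0.17, adjusted p = 0.478) for Ccl3 and 0.16 (SE 0.20, adjusted p = 0.547) for Ccl4. Their RefSeq spans overlap by 755 bases on opposite strands, and the strand setting of the counting is not given in the sources used here, so their reads may not be fully separate.

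Ccl6 and Ccl9 are chemokines of rodents that bind CCR1 and are known as products of myeloid cells. Ccl6 ran from 0 to 5.33 in young (median 3.19), 352 to 395 in old (median 361) and 547 to 777 in rejuvenated old MSCs (median 654). No library of a group reached the range of another. The fitted log2 fold change was -6.97 (SE 0.35, adjusted p = 1.25e-14, limma) between young and old MSCs. Between rejuvenated old and old MSCs the ratio of means was 1.77 and the fitted value 0.81 (SE 0.35, adjusted p = 0.0707), which did not pass in the fit of all 3 groups. It passed when only these 2 groups were fitted (adjusted p = 1.26e-07) and with edgeR (7.31e-08) or DESeq2 (1.13e-23) on whole reads. Ccl6 overlaps the transcript E230016K23Rik on the opposite strand, which had a mean of 44.1. Ccl9 ran from 43.6 to 66.1 in young (median 51.6), 1197 to 1412 in old (median 1331) and 1516 to 1839.7 in rejuvenated old MSCs (median 1695). Here too the 3 groups were apart, with log2 fold changes of -4.62 (SE 0.08, adjusted p = 2.50e-23) between young and old and 0.34 (SE 0.08, adjusted p = 0.00166) between rejuvenated old and old MSCs.

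Ccl5 (RANTES), which draws T cells and monocytes, stood against the rest of its class. It ran from 302 to 454 in young (median 429), 26.0 to 70.9 in old (median 38.2) and 17.9 to 99.9 in rejuvenated old MSCs (median 35.1). All young libraries were above all others, at 9.61 times the mean of old MSCs and with a log2 fold change of 3.31 (SE 0.29, adjusted p = 3.51e-10, limma). Old and rejuvenated old libraries overlapped throughout (-0.05, SE 0.29, adjusted p = 0.917). Its gene lies 47.6 kb from Ccl9 and 120.5 kb from Ccl3, the distances being taken between gene centres.

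**Figure D3:**
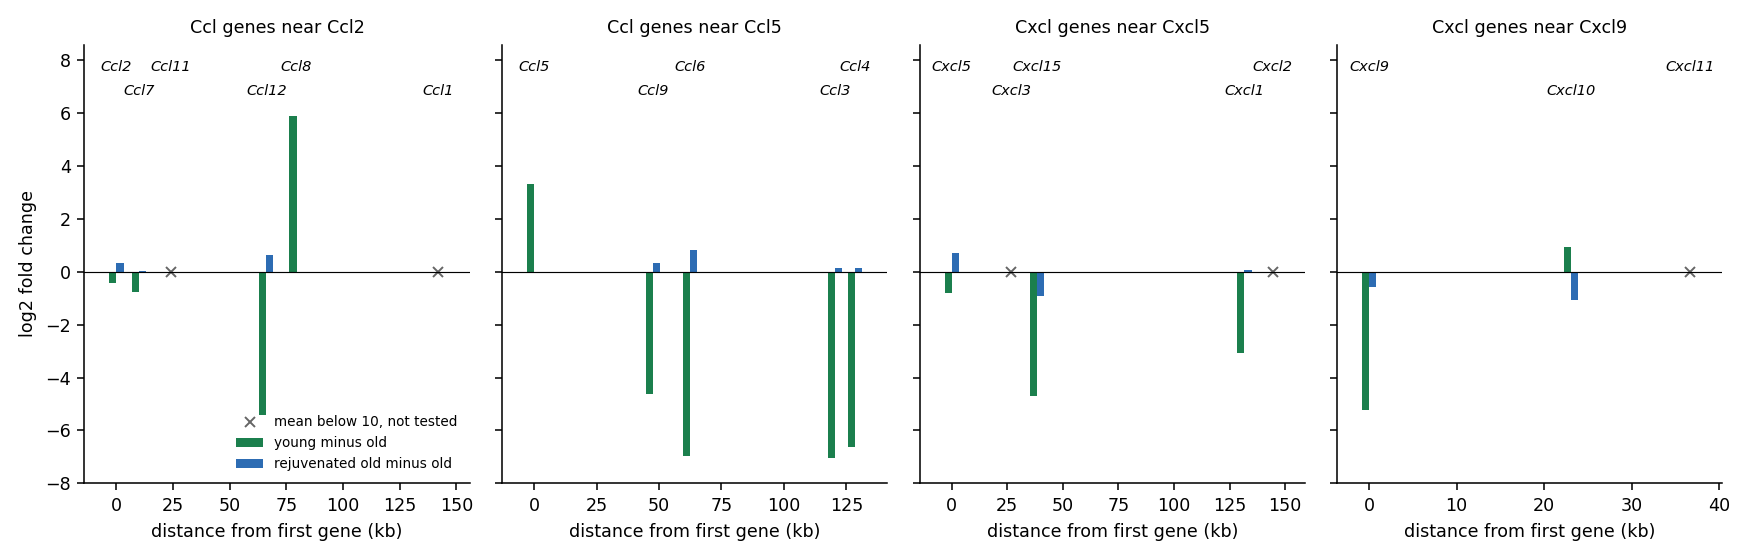
Log2 fold changes (bars, green for young minus old and blue for rejuvenated old minus old) placed by distance in kb from the first gene of each of 4 chemokine clusters, with crosses for genes below a mean of 10. Ccl8 at 5.90 points upward next to Ccl12 at -5.42, Ccl5 at 3.31 stands at the edge of a cluster whose other green bars reach -7.04, and the blue bars stay between -1.07 (Cxcl10) and 0.81 (Ccl6).

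Neutrophil-attracting ligands were lower in young than in old MSCs in each of the 3 members tested, where 44.1% of all genes were lower. They differed among themselves in rejuvenated old MSCs. Cxcl1 (KC) ran from 70.7 to 105 in young (median 87.7), 649.9 to 843 in old (median 719) and 714 to 853 in rejuvenated old MSCs (median 764). Young libraries lay below the others by a log2 fold change of -3.06 (SE 0.08, adjusted p = 3.02e-20, limma), and old and rejuvenated old libraries overlapped (0.08, SE 0.08, adjusted p = 0.452). Cxcl5 (LIX) ran from 59.7 to 84.9 in young (median 68.7), 97.5 to 152 in old (median 115) and 161 to 253 in rejuvenated old MSCs (median 190.0). Its groups rose in that order without overlap, by -0.79 (SE 0.13, adjusted p = 8.34e-06) for young minus old and 0.71 (SE 0.13, adjusted p = 0.000164) for rejuvenated old minus old MSCs.

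Cxcl15 (lungkine), known best from lung epithelium, went the other way in rejuvenated old MSCs. It ran from 1.09 to 8.96 in young (median 5.83), 133 to 169.6 in old (median 146) and 70.0 to 90.4 in rejuvenated old MSCs (median 81.2). The groups did not overlap, and rejuvenated old MSCs held 0.530 of the mean of old MSCs, with a log2 fold change of -0.91 (SE 0.25, adjusted p = 0.00526, limma). Between young and old MSCs the value was -4.68 (SE 0.25, adjusted p = 2.79e-14). Cxcl2 (MIP-2) lay below the limit for testing, at 0 to 2.02 in young (3 reads in all), 3.01 to 5.77 in old (median 4.66) and 9.51 to 22.6 in rejuvenated old MSCs (median 15.2). Every rejuvenated old library lay above every old one, and by reads the ratio was 3.60 (95% exact interval 2.33 to 5.72). In a fit of all 21697 genes with a read its log2 fold change was 1.63 (SE 0.30, adjusted p = 0.000262, limma) between rejuvenated old and old MSCs. Cxcl3 had 10 reads in all 18 libraries, and no difference was detectable at that depth.

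Upstream sequence of these genes is shown because Cxcl1 and Cxcl2 lie side by side and Cxcl15 differed from both. The 120 bases before each RefSeq start on GRCm38.p6 are on the plus strand, at chr5:90891125-90891244, chr5:90903779-90903898 and chr5:90794414-90794533. Capitals mark matches to the NF-kB consensus in Cxcl1 and Cxcl2 and TATAAA in Cxcl15.
Cxcl1: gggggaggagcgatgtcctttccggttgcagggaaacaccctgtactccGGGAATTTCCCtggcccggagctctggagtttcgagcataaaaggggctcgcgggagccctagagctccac
Cxcl2: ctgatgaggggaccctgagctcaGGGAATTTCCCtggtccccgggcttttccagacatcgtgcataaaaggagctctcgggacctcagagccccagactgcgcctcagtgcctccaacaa
Cxcl15: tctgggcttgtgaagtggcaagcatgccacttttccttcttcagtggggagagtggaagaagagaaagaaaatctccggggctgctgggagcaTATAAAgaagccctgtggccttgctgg
Cxcl1 and Cxcl2 hold the same 11 letters GGGAATTTCCC, a match on both strands. The NF-kB consensus was found on either strand in 8.46% of all windows and in 8 of the ligands' 31 windows. These belonged to 8 of the 25 ligands with a window, namely Ccl1, Ccl9, Ccl20, Ccl27a, Cxcl1, Cxcl2, Cxcl3 and Cxcl10. No match of these motifs overlapped that of another in the ligands' windows. A match describes letters and not a bound site.

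Cxcl9 and Cxcl10, the interferon-inducible ligands of CXCR3, varied widely from library to library within old and rejuvenated old MSCs. Cxcl9 (MIG) drew 3 reads in young MSCs, and ran from 0 to 1.09 in young, 19.1 to 212 in old (median 48.7) and 18.6 to 122 in rejuvenated old MSCs (median 23.6). Young libraries lay below all others, with a log2 fold change of -5.22 (SE 0.51, adjusted p = 1.80e-09, limma), and old and rejuvenated old libraries overlapped throughout (-0.56, SE 0.51, adjusted p = 0.404). Cxcl10 (IP-10) ran from 84.2 to 191 in young (median 106), 9.03 to 194 in old (median 65.3) and 5.66 to 148 in rejuvenated old MSCs (median 24.5). All 3 groups overlapped. Young and old MSCs did not differ significantly (0.96, SE 0.62, adjusted p = 0.153), nor did rejuvenated old and old MSCs (-1.07, SE 0.62, adjusted p = 0.179), whereas young MSCs were above rejuvenated old MSCs (2.03, SE 0.62, adjusted p = 0.00461). Single libraries decided the second of these, which passed without rejuvenated old replicate 1 (-1.55, adjusted p = 0.0315) or without old replicate 5 (-1.58, adjusted p = 0.0280). Cxcl11 (I-TAC) had 10 reads in young MSCs and none in the other groups. No fold is given against groups at 0 with so few reads.

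The highest libraries were partly the same for these genes. Old replicate 2 held the most Cxcl9 (212) and Ccl5 (70.9) of its group, and rejuvenated old replicate 1 held the most Cxcl9 (122), Cxcl10 (148) and Ccl5 (99.9) of its own. Irf7, which amplifies type I interferon, was also highest in these libraries, at 2399 in old replicate 2 against 419 to 1154 in the other old libraries and at 2039 in rejuvenated old replicate 1 against 546 to 1597. Cxcl10 in the old group was instead highest in replicate 3, at 194. Between young and old MSCs Irf7 was higher in young MSCs (log2 fold change 2.97, adjusted p = 4.73e-08, limma).

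**Figure D4:**
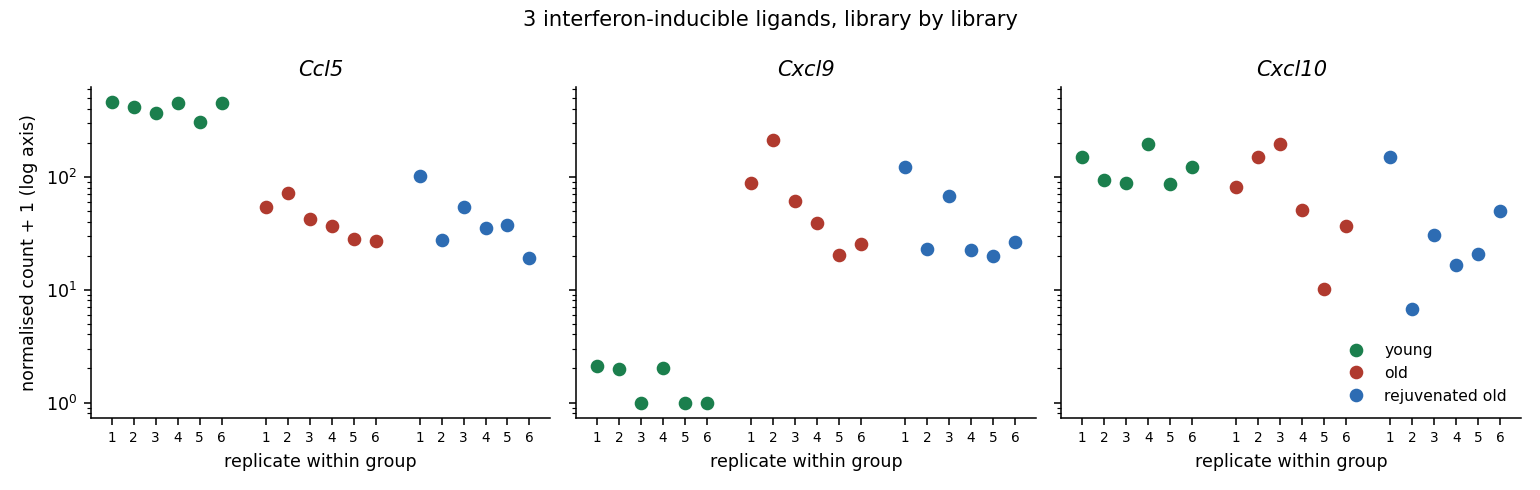
Normalised read counts plus 1 (log axis) of Ccl5, Cxcl9 and Cxcl10 in each of the 6 replicates of young (green), old (red) and rejuvenated old (blue) MSCs. Rejuvenated old replicate 1 is the highest of its group in all 3 panels, and Cxcl10 overlaps between all groups.

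The upstream sequence of Cxcl10 is shown because it holds matches of both kinds. These 230 bases lie at chr5:92348890-92349119 of GRCm38.p6 on the minus strand, with the letters GAAANNGAAA (an interferon-response motif) and the NF-kB consensus in capitals.
Cxcl10: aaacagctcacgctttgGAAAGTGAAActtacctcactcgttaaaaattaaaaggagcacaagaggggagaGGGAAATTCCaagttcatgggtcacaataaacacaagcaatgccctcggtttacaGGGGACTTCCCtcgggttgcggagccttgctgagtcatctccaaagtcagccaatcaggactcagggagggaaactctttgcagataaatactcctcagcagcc
GAAANNGAAA began 213 bases before the start. On both strands it was found in 3.44% of all windows and in 3 of the ligands' 31 windows, from Ccl19, Cxcl10 and Cxcl14.

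Cx3cl1 and Cxcl16 are made as membrane proteins that hold their receptor-bearing cells until a protease releases the chemokine. Cx3cl1 took the largest part of the ligands' summed normalised counts in every group, with 27.9% in young and 33.3% in old MSCs and 27.5% after rejuvenation. It ran from 1055 to 1200.3 in young (median 1154), 3151 to 3450.4 in old (median 3222) and 2713 to 3142 in rejuvenated old MSCs (median 2955). The groups were apart, although the highest rejuvenated old library, at 3142, came close to the lowest old one, at 3151. Log2 fold changes were -1.50 (SE 0.04, adjusted p = 4.26e-20, limma) between young and old and -0.15 (SE 0.04, adjusted p = 0.00430) between rejuvenated old and old MSCs. Cxcl16 ran from 129.5 to 164 in young (median 141), 330.2 to 416 in old (median 366) and 387 to 487 in rejuvenated old MSCs (median 435). Young libraries lay below the others (-1.36, SE 0.07, adjusted p = 4.94e-14), while old and rejuvenated old libraries overlapped and differed by 0.25 (SE 0.07, adjusted p = 0.00930).

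The proteases that cut these ligands or trim others were lower in rejuvenated old MSCs than in old ones in all 5 tested of 6 listed, where 20.6% of all genes were lower. The sixth, Dpp4, was below the limit for testing, with 4 reads in old and 17 in rejuvenated old MSCs. Adam10, which cleaves both membrane ligands, ran from 366 to 703 in rejuvenated old and 886 to 1101 in old MSCs (log2 fold change -0.85, adjusted p = 1.57e-06, limma). Of the 5 tested, 2 were higher and 3 lower in young than in old MSCs, where 41.6% and 44.1% of all genes were. Mmp2, a gelatinase known to cleave Ccl7, had the largest difference, with 1387 to 1617 in young and 44838 to 48122 in old MSCs (-4.94, adjusted p = 4.56e-30). Mmp9, the related gelatinase, ran from 203 to 293 in young and 21.5 to 42.0 in old MSCs (2.96, adjusted p = 1.79e-13).

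Cxcl14 (BRAK), a chemokine of skin and other epithelia and of stromal cells, had the largest fitted difference between rejuvenated old and old MSCs among the 21 tested ligands, the untested Cxcl2 lying higher in the fit without a filter. It drew 1 read in young MSCs and ran from 85.3 to 123 in old (median 90.0) and 166 to 278 in rejuvenated old MSCs (median 228). No old library reached the lowest rejuvenated old one, and the mean was 2.28 times as high, with a log2 fold change of 1.17 (SE 0.19, adjusted p = 3.05e-05, limma). Between young and old MSCs it was -6.42 (SE 0.19, adjusted p = 3.51e-19).

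Of the 12 ligands of lymphoid and tissue homing, 4 passed the limit, with 2 higher and 2 lower in young than in old MSCs. Over all genes 41.6% were higher and 44.1% lower. Ccl17 (TARC), which binds CCR4 on T cells, ran from 19.6 to 34.6 in young (median 23.7), 3.85 to 11.8 in old (median 7.47) and 9.43 to 14.3 in rejuvenated old MSCs (median 12.3). Young libraries lay above the rest (log2 fold change 1.69, SE 0.23, adjusted p = 5.26e-07, limma). Old and rejuvenated old libraries overlapped and differed by 0.68 (SE 0.23, adjusted p = 0.0230), a call lost without old replicate 4 (adjusted p = 0.0522) or old replicate 6 (0.0640) and with DESeq2 (0.0657). Ccl28 (MEC), a mucosal chemokine, ran from 25.03 to 55.4 in young, 18.1 to 22.7 in old and 14.3 to 29.9 in rejuvenated old MSCs, with young above old by 0.95 (SE 0.19, adjusted p = 6.60e-05) and no significant difference between the others (0.11, SE 0.19, adjusted p = 0.682).

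Ccl25 (TECK), the thymus and gut chemokine that binds CCR9, ran from 144 to 176 in young (median 154), 181 to 246 in old (median 219) and 179 to 227 in rejuvenated old MSCs (median 211). Young libraries lay just below the others (-0.44, SE 0.09, adjusted p = 5.18e-05, limma), and rejuvenated old overlapped with old (-0.04, SE 0.09, adjusted p = 0.758). Ccl27a (CTACK), a skin chemokine, ran from 10.1 to 25.9 in young (median 19.4), 42.1 to 55.8 in old (median 47.2) and 56.6 to 82.1 in rejuvenated old MSCs (median 57.8). The groups did not overlap, with -1.34 (SE 0.17, adjusted p = 1.56e-07) between young and old MSCs and a value between rejuvenated old and old MSCs that did not pass (0.39, SE 0.17, adjusted p = 0.0689). The latter passed when these 2 groups were fitted alone (adjusted p = 0.0150). In GENCODE M21 each of these genes overlaps a more abundant gene on the opposite strand, Elavl1 with a mean of 2779.8 for Ccl25 and Il11ra1 with 1723 for Ccl27a. In RefSeq the overlap of Ccl27a with Il11ra1 is 7 bases and Ccl25 has none with Elavl1. Ccl27a also has a near-identical copy in Ccl27b, and both values are uncertain.

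Ligands with a mean below 10 were sparse. Ccl11 (eotaxin) had 22 reads in young MSCs and 19 in each of the other groups. Ccl24, the related eotaxin-2, ran from 0 to 0.996 in young (1 read), 1.08 to 3.94 in old (14 reads) and 1.93 to 6.52 in rejuvenated old MSCs (23 reads), so young libraries lay below all others. In the fit of 21697 genes it differed between young and old MSCs (-1.51, SE 0.27, adjusted p = 2.94e-05, limma). The remaining ones had 2 to 9 reads over all 18 libraries, with 7 for Ccl20, 9 for Cxcl17, 5 for Cxcl13, 4 for Ccl27b, 2 for Ccl1 and 2 for Ccl22. Ccl19, Ccl21a, Ccl21b, Ccl21c and Ccl26 were at 0 in every library. The Ccl21 genes are near-identical copies of each other, so reads that map to several of them may not have been counted.

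Of 18 chemokine receptors, 4 had a mean of at least 10 and were tested. Cxcr5, which binds Cxcl13, was the most abundant, at 62.0 to 123 over all libraries, and did not differ significantly between young and old (log2 fold change 0.06, adjusted p = 0.68, limma) or rejuvenated old and old MSCs (0.30, adjusted p = 0.0631). Ccr10, which binds Ccl27a and Ccl28, ran from 7.88 to 27.7 and did not differ significantly either (adjusted p = 0.466 and 0.984). Cxcr4, the receptor of Cxcl12, was lower in young than in old MSCs, at 6.07 to 21.3 against 15.0 to 28.6 (log2 fold change -1.16, adjusted p = 0.00031, limma). Ccr1, which binds Ccl3, Ccl5, Ccl6 and Ccl9, was higher in rejuvenated old than in old MSCs, at 16.5 to 36.8 against 4.30 to 17.2 (1.21, adjusted p = 0.00315). Ccr2 and Cxcr2, the main receptors of the monocyte and neutrophil ligands, reached at most 2.85 and 1.03 in any library. Cx3cr1, the receptor of Cx3cl1, was below the limit for testing, with a mean of 8.52. It ran from 0 to 2.13 in young, 13.6 to 21.5 in old and 4.76 to 16.0 in rejuvenated old MSCs.

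Atypical chemokine receptors, which bind ligands without signalling through G proteins and clear them, were tested in 2 of 6 members. Ackr3 ran from 436 to 561 in young (median 503), 0 to 6.46 in old (median 2.91) and 2.90 to 27.8 in rejuvenated old MSCs (median 7.96), the last value being that of replicate 1. Its log2 fold changes were 7.24 (adjusted p = 1.84e-13, limma) between young and old and 1.60 (adjusted p = 0.00414) between rejuvenated old and old MSCs. Ackr4, which takes up Ccl19, Ccl21 and Ccl25, ran from 50.3 to 62.9 in young, 223 to 308 in old and 426 to 578 in rejuvenated old MSCs, with no overlap. The values were -2.28 (adjusted p = 7.2e-17) and 0.95 (adjusted p = 1.46e-08). Ackr2 was below the limit for testing, with a mean of 8.13. It ran from 12.1 to 26.8 in young, 0.985 to 6.36 in old and 0.944 to 7.21 in rejuvenated old MSCs.

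Of 3 chemokines that the naming rule did not reach, Xcl1 drew a read in a single library, and the other two were near 0 in young MSCs. Pf4 (platelet factor 4, or Cxcl4) was at 0 in all young libraries, 95.9 to 108 in old and 188 to 283 in rejuvenated old MSCs, where it was higher by 1.15 (adjusted p = 3.35e-07, limma). Ppbp (Cxcl7) ran from 0 to 0.996 in young, 14.8 to 30.2 in old and 3.86 to 16.2 in rejuvenated old MSCs, where it was lower (-1.15, adjusted p = 0.0044).

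Of the cytokines and receptors known to induce chemokines, 13 of 15 were tested, with 4 higher and 8 lower in young than in old MSCs. Over all genes 41.6% were higher and 44.1% lower in this comparison, and 21.0% and 20.6% between rejuvenated old and old MSCs, and the counts of this list and of the regulators that follow are to be read against these shares. Tnf, a main inducer, ran from 0 to 5.06 in young, 46.2 to 64.5 in old and 52.2 to 70.8 in rejuvenated old MSCs (young minus old -4.13, adjusted p = 8.49e-12, limma; rejuvenated old minus old 0.24, adjusted p = 0.555). Il6 was higher in rejuvenated old than in old MSCs, at 14.3 to 41.9 against 8.03 to 29.5 (1.08, adjusted p = 0.00415). Of 14 NF-kB regulators, 8 were higher and 4 lower in young than in old MSCs, and 6 were higher and 2 lower in rejuvenated old MSCs than in old MSCs. Bcl3, a coactivator of the pathway, differed most, at 306 to 402 in young and 106 to 127 in old MSCs (1.61, adjusted p = 9.28e-14). Of 12 tested interferon regulators, 3 were higher and 6 lower in young than in old MSCs, against 3 higher and 2 lower in rejuvenated old MSCs than in old MSCs.

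**Figure D5:**
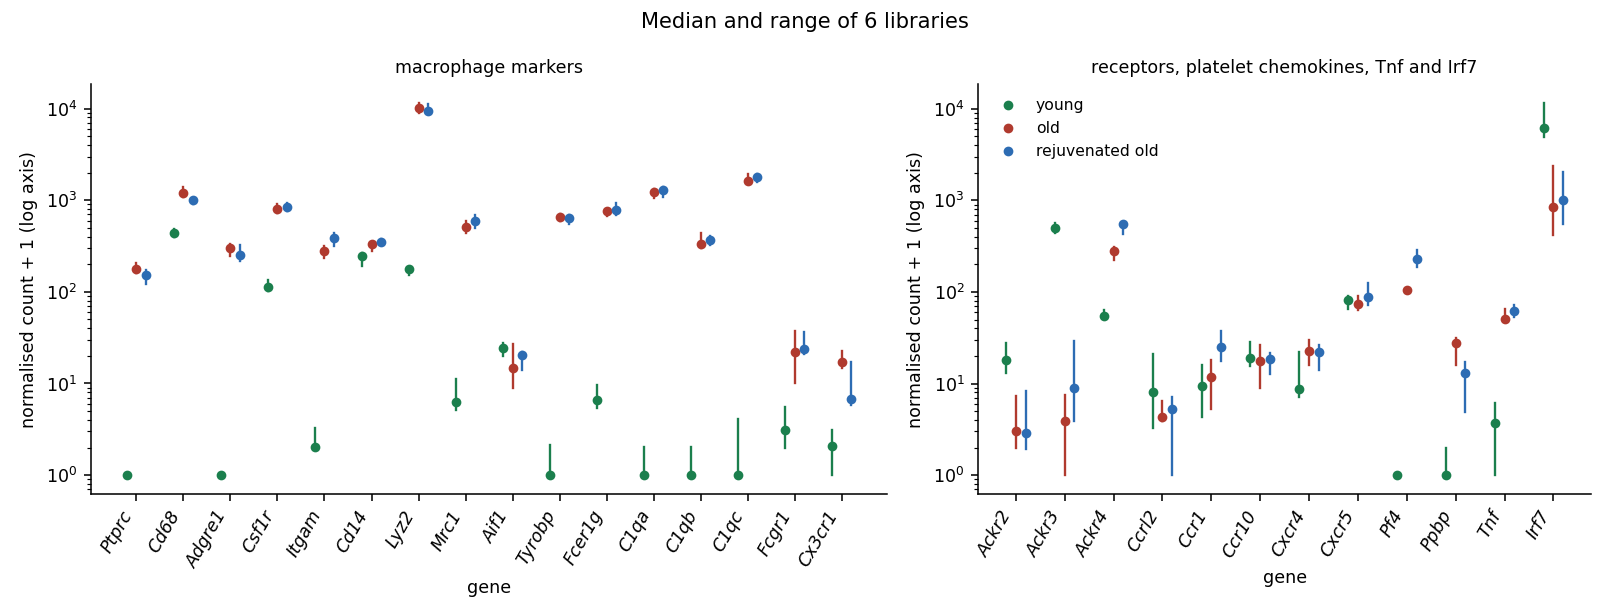
Median (point) and range (line) of the normalised read counts plus 1 (log axis) over 6 libraries of young (green), old (red) and rejuvenated old (blue) MSCs, for 16 macrophage markers (left) and for receptors, platelet chemokines, Tnf and Irf7 (right). Ptprc and Adgre1 are at 0 in young MSCs, and Ackr3 and Irf7 are highest there.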

How the data were processed

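For every gene the authors deposited a signal, its reads in a library over that library's DESeq2 size factor. Per the study's methods the authors aligned reads to mm10 with HISAT2 and counted them with StringTie and featureCounts on Galaxy. Versions, annotation, filters and strand setting are not given in the sources used here. Whole reads were recovered for 100% of values (tolerance 0.001 of a read).

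The test was limma 3.58.1 (R 4.3.3) on log2 of value plus 1, fitting all 18 libraries together with a prior variance that depends on expression. It covered 14353 genes, those averaging 10 or more. Benjamini-Hochberg adjusted p under 0.05 was called. Fold changes on this scale understate those of low genes. DESeq2 1.42.0 and edgeR 4.0.16 on recovered reads were alternatives. The fits were also run on simulated counts of known change. These had a fixed spread and no gene near 0 in 1 group and high in another. They therefore do not bear on ligands with few reads in a group. Folds of groups with few reads are ratios of reads with exact 95% intervals (counting error only). At most 3 reads in every library counted as the floor. Motifs and positions are from RefSeq (GRCm38.p6).

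Every ligand was named. Of other lists, genes were named that were called and changed by 1 or more in log2, up to 4 a list, or were defining markers; others were named after their values were seen. Members and lists were chosen with earlier results of these data known.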

Additional observations from a re-analysis of the deposited data

Results flagged for a closer look

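The 21 tested ligands gave 58 groups of 6 libraries in which at least 1 library had more than 3 reads. In 5 of these groups, the highest library lay farther from the next than Dixon's 95% critical value for 6 values allows, the gap taking 0.628 to 0.720 of the group's range. About 1 in 20 groups, here 2.9, would do so by chance. Ccl8 was 4.92 normalised counts in old replicate 2 against 1.08 to 2.15 in the other old libraries, and 7.73 in rejuvenated old replicate 4 against 0 to 2.83. These values rest on few reads. Cxcl9 was 212 in old replicate 2 against 19.1 to 87.1. Cxcl10 was 148 in rejuvenated old replicate 1 against 5.66 to 49.1, and this library also led its group in Ccl5, Cxcl9, Irf7, Ackr3 and Thy1. Cx3cl1 was 3450.4 in old replicate 4 against 3151 to 3262.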

How the results depend on the processing

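Counts and directions of the chemokine ligands held under most settings: of the alternative values, 1766 kept their direction and their side of the threshold, 18 calls were lost, 13 were gained and 18 values changed sign. With a mean of at least 50 required, only 17 ligands were tested. Of these, 2 were higher in young than in old MSCs and 3 were higher in young than in rejuvenated old MSCs. Shares over all genes were taken in the main setting only, so counts of ligands under other settings have none beside them. Sign changes concerned differences between rejuvenated old and old MSCs that never passed. For Ccl8 the log2 fold change was 0.0281 with a pseudocount of 10, 0.22 with DESeq2 and 0.21 with edgeR, and for Ccl5 0.0737 with DESeq2 and 0.0680 with edgeR. Leaving out each library in turn gave -0.0247 to 0.0841 for Ccl7, -0.367 to 0.258 for Ccl8, -0.318 to 0.165 for Ccl5 and -0.0832 to 0.00488 for Ccl25, and for rejuvenated old against old MSCs 5 to 8 ligands higher and 2 to 3 lower. With a pseudocount of 10, with edgeR or with only these 2 groups fitted, 9 ligands were higher, Ccl6 and Ccl27a being gained. Adjusted p over all settings ran from 4.32e-05 to 0.141 for Ccl12 and from 1.13e-23 to 0.185 for Ccl6. Counts at 1 to 20 reads over a group limit folds to the intervals given.

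Same-numbered libraries of different groups deviated together with correlations of -0.152 to 0.0736, so the numbers were not taken to pair the samples. With the replicate number as a block, 6 ligands were higher in rejuvenated old than in old MSCs, Ccl12 being lost (adjusted p = 0.0605), and no other call changed.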
